A study of Mus musculus with 4 samples.

Results

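The genes described here are 9 mouse genes that carry the interferon signal or sense foreign nucleic acid. They were taken by symbol from the 33565 genes of the count matrices. Ifnar1 and Ifnar2 encode the subunits of the type I interferon receptor, Stat2, Irf9, Irf1, and Irf3 encode transcription factors, and Cgas, Tlr3, and Ifih1 encode sensors. Their basal level and the share of cells with their transcript were measured by scRNA-seq in 3 cell lines, N2a, NIH/3T3, and mESCs. Level means CPM, the unique molecular identifiers (UMIs) of a gene summed over the cells of a line and scaled to a total of 1000000 UMIs.

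N2a (Neuro-2a) is a mouse neuroblastoma line and was loaded in columns 1 to 4 of the BC1 barcoding plate. NIH/3T3, fibroblasts derived from mouse embryos, filled columns 5 to 8. Both were kept in DMEM with 10% FBS. The mESCs, of the E14TG2a line, filled columns 9 to 12 and had been cultured on gelatin with 15% FBS, leukemia inhibitory factor, CHIR99021 at 3 μM, and PD0325901 at 1 μM, which inhibit GSK3 and MEK. No interferon, nucleic acid, or virus treatment is named for any line, and all lines grew with penicillin-streptomycin. All cells were barcoded together by split-pool barcoding (CapSeq), and each line is 1 sample without a replicate, so no test between lines was possible and no p-value is given. The differences between lines cannot be told apart from differences between media or cultures.

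Of the barcodes, 2323 N2a cells, 2037 NIH/3T3 cells, and 2137 mESCs reached 1000 UMIs with no more than 20% of them mitochondrial. They held 17955221, 11697865, and 12322098 UMIs, with medians of 6185, 4863, and 4803 UMIs per cell. The line matrices shared 0 barcodes with UMIs. Marker genes listed for each line separated the lines as labelled, with the exceptions given here. Zfp42 (mESCs) reached 1318 CPM, Prrx1 (NIH/3T3) 622 CPM, and Hand2 (N2a) 404 CPM, each below 2 CPM elsewhere. Of the N2a list, Dbh was low even in N2a, at 0.891 CPM, and in mESCs the fibroblast marker Fn1 stood at 642 CPM. All intervals are exact at the 95% level, Poisson for levels and binomial (Clopper-Pearson) for shares, and they cover counting error only.

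Type I interferons bind the receptor formed by IFNAR1 and IFNAR2, and the kinases JAK1 and TYK2 then phosphorylate STAT2. With IRF9, STAT2 is part of a complex that binds the interferon-stimulated response element (ISRE) and induces many genes with antiviral functions. Interferons themselves are made after cGAS, which binds cytosolic DNA, MDA5 (the product of Ifih1) and RIG-I, which bind cytosolic RNA, or TLR3, which binds RNA in endosomes, activate kinases that phosphorylate IRF3. Fibroblasts are a classic cell for interferon responses, whereas mouse embryonic stem cells are known to respond weakly to interferon and to viral RNA.

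The promoters of the 4 genes that were at least 2-fold higher in NIH/3T3 than in mESCs, and that of Stat2, are printed to place the levels beside the regulatory sequence. Each is the 250 bases before the outermost annotated start of the gene, on GRCm39 and in the direction of the gene. Capitals mark a match to the ISRE core (GAAA, 2 bases of any kind, GAAA) or to the gamma-activated site (GAS, TTCNNNGAA), both searched on both strands.
Stat2, chr10:128106102-128106351, plus strand: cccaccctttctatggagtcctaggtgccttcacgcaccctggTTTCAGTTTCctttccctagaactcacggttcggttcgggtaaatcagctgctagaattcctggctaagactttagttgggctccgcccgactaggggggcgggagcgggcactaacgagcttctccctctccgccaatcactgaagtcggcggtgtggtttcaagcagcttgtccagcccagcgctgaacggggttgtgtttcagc
Irf1, chr11:53660562-53660811, plus strand: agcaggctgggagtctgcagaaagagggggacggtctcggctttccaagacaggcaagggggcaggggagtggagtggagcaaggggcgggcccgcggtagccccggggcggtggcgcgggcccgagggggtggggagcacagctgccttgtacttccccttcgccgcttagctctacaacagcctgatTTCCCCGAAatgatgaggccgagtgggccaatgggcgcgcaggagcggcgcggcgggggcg
Ifnar2, chr16:91169368-91169617, plus strand: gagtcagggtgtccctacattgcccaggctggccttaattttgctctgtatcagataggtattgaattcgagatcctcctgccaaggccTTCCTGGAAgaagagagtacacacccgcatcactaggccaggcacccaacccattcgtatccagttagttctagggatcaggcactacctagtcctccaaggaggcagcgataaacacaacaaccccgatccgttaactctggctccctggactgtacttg
Cgas, chr9:78350536-78350785, minus strand: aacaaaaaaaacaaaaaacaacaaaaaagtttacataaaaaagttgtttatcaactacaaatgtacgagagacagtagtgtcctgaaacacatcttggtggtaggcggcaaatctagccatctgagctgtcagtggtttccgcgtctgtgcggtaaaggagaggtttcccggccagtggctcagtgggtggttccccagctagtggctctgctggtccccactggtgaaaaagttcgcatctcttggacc
Tlr3, chr8:45864118-45864367, minus strand: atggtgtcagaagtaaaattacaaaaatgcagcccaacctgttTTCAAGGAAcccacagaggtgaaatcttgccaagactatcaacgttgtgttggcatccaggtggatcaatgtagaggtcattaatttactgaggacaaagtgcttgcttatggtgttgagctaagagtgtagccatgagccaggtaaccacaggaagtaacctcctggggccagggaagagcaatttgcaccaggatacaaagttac
Among the 9 genes, only the Stat2 window held the ISRE core, as TTTCAGTTTC 207 bases before the start, and 3.34% of the 32953 windows of this length held it. A GAS match was found for Irf1, as TTCCCCGAA 61 bases before the start, for Ifnar2, as TTCCTGGAA at 161 bases, and for Tlr3, as TTCAAGGAA at 207 bases, which was not found when the window was set at the canonical start. Of all windows, 7.87% held a GAS match. The Cgas window and the 4 windows not printed held neither. One of these, that of Irf9, may not be its promoter, because the first 282 bases of Irf9 overlap Rnf31 on the same strand. A window without a match does not show that a gene lacks such a site elsewhere. A match is only a match of letters and no site of binding was measured.

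Irf1, Ifnar2, Cgas, and Tlr3 had their highest level in NIH/3T3, with an interval above both other lines. The share of all genes with such an interval was not counted. For Ifnar1, Stat2, Irf3, Irf9, and Ifih1, the intervals of the upper 2 lines overlapped, so that no line is named as the highest. The UMIs of all 9 added up to 118 CPM in N2a (95% interval 113 to 123), 188 CPM in NIH/3T3 (181 to 196), and 110 CPM in mESCs (104 to 116). The sum in NIH/3T3 therefore lay above both other lines beyond counting error.

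**Figure D1:**
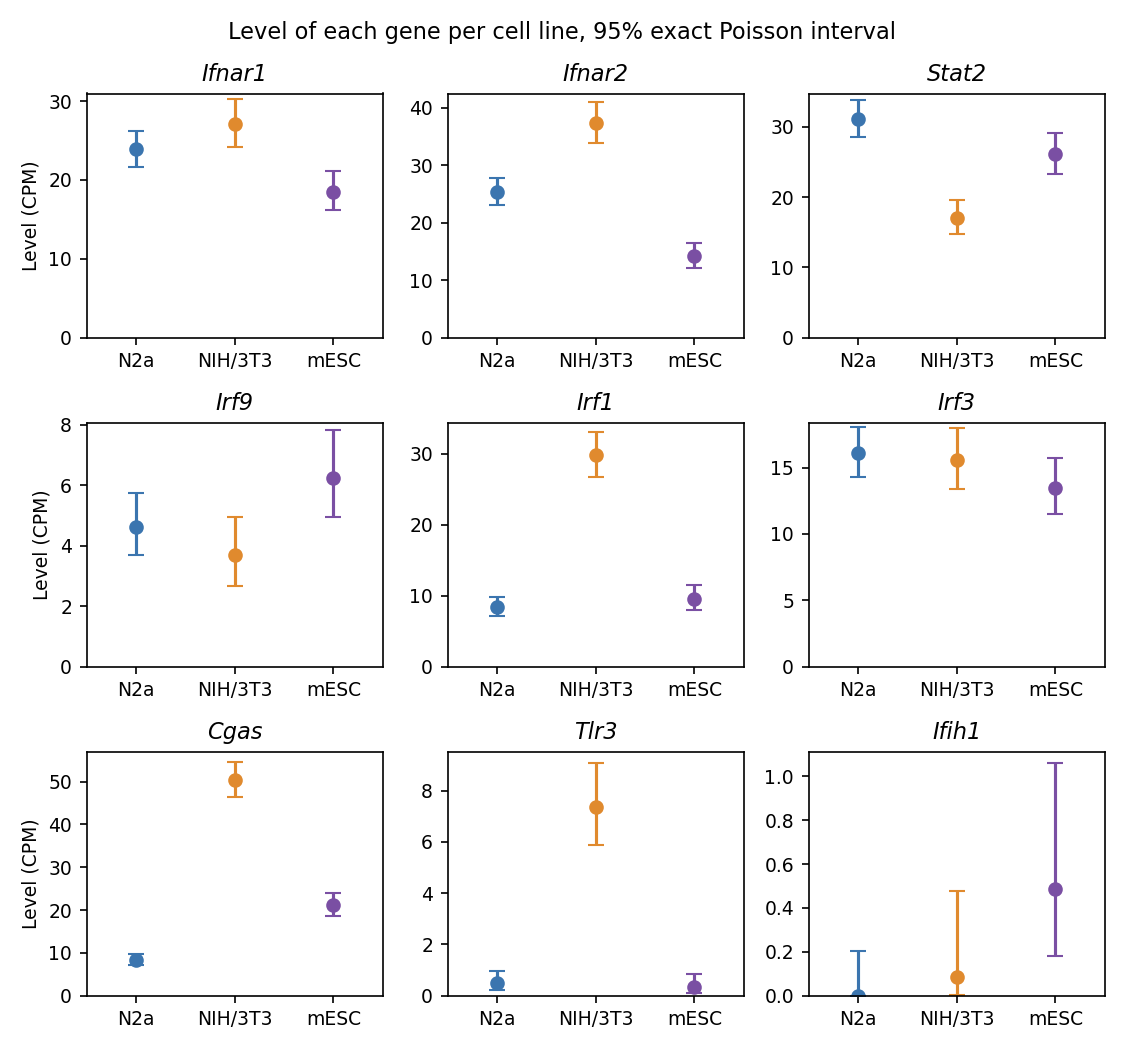
Level of each gene in CPM (y axis, from 0, a separate scale per panel) in N2a, NIH/3T3, and mESCs (x axis); points are the level over all cells of the line and bars are 95% exact Poisson intervals. Cgas runs from 8.35 CPM in N2a to 50.4 CPM in NIH/3T3, whereas the intervals of Irf3 overlap in all 3 lines.

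The receptor genes lie on chromosome 16, Ifnar2 at 91169618 to 91202723 and Ifnar1 at 91281942 to 91305789, both on the plus strand of GRCm39. Ifnar2, whose product is the high-affinity subunit, had a level of 25.4 CPM in N2a (23.1 to 27.8), 37.4 CPM in NIH/3T3 (33.9 to 41.0), and 14.1 CPM in mESCs (12.1 to 16.4). The intervals of the 3 lines were separate, and the order from NIH/3T3 over N2a to mESCs held for every neighbouring pair. The level in NIH/3T3 was 2.65 times that in mESCs (95% exact conditional interval of the ratio 2.21 to 3.17) and 1.47 times that in N2a (1.29 to 1.68). Ifnar1, the other subunit, had a level of 23.9 CPM in N2a (21.7 to 26.3), 27.1 CPM in NIH/3T3 (24.2 to 30.3), and 18.5 CPM in mESCs (16.2 to 21.1). Its lines followed the same order with smaller steps. NIH/3T3 and N2a did not differ beyond counting error, with a ratio of 1.13 (0.978 to 1.31). The mESCs were lower than both, with 1.46 times the mESC level in NIH/3T3 (1.23 to 1.74) and 1.29 times in N2a (1.10 to 1.52).

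At least 1 Ifnar2 UMI was counted in 16.9% of N2a cells, 18.0% of NIH/3T3 cells, and 7.25% of mESCs, and at least 1 Ifnar1 UMI in 15.2%, 13.2%, and 9.78%. Because N2a cells held more UMIs, the UMIs of each cell were also thinned to 1000, and no cell fell short of this number. The shares were then 3.27%, 3.49%, and 1.50% for Ifnar2 and 1.98%, 2.70%, and 1.92% for Ifnar1. No order of N2a and NIH/3T3 is read from the unthinned Ifnar1 shares, which run against the levels. Both receptor transcripts were found in the same cell in 93 N2a cells, 66 NIH/3T3 cells, and 29 mESCs, or 4.00%, 3.24%, and 1.36% of cells, where the product of the separate shares is 2.57%, 2.37%, and 0.709%. Cells with more UMIs hold more of any transcript, so these joint shares describe detection and were not corrected for depth. The highest count in a single cell was 5 UMIs of Ifnar1, in N2a.

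Stat2 (chromosome 10, 128106352 to 128128735, plus strand), the STAT protein specific to type I and type III interferon signalling, had a level of 31.1 CPM in N2a (28.6 to 33.8), 17.0 CPM in NIH/3T3 (14.7 to 19.5), and 26.1 CPM in mESCs (23.3 to 29.1). It was the only gene of the 9 whose NIH/3T3 interval lay below both other lines. The level was 1.83 times as high in N2a as in NIH/3T3 (1.55 to 2.16) and 1.53 times as high in mESCs (1.28 to 1.84). N2a and mESCs were neighbours with overlapping intervals, although the interval of their ratio, 1.19, ran from 1.04 to 1.37. Stat2 transcripts were present in 19.4% of N2a cells, 8.54% of NIH/3T3 cells, and 12.9% of mESCs, and in 3.79%, 1.72%, and 3.23% after thinning, so the low share in NIH/3T3 remained at equal depth.

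Irf9 (chromosome 14, 55841028 to 55847812, plus strand), the DNA-binding partner of STAT2, was counted with 83, 43, and 77 UMIs. Its level was 4.62 CPM in N2a (3.68 to 5.73), 3.68 CPM in NIH/3T3 (2.66 to 4.95), and 6.25 CPM in mESCs (4.93 to 7.81). Neighbouring lines overlapped in the order from mESCs over N2a to NIH/3T3, and only the outer pair was separated by its ratio, 1.70 (1.16 to 2.53). The ratio of mESCs to N2a was 1.35 (0.978 to 1.87). Stat2 and Irf9 were detected together in 22 N2a cells, 4 NIH/3T3 cells, and 16 mESCs.

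Irf1 (chromosome 11, 53660812 to 53669200, plus strand), a transcription factor that interferon gamma induces through GAS elements, had a level of 8.41 CPM in N2a (7.12 to 9.86), 29.8 CPM in NIH/3T3 (26.8 to 33.1), and 9.58 CPM in mESCs (7.93 to 11.5). NIH/3T3 stood alone, and the other lines overlapped, with a ratio of mESCs to N2a of 1.14 (0.887 to 1.46). The level in NIH/3T3 was 3.55 times that in N2a (2.92 to 4.32) and 3.12 times that in mESCs (2.52 to 3.87). Irf1 was detected in 14.1% of NIH/3T3 cells, 6.07% of N2a cells, and 5.05% of mESCs, and after thinning in 3.09%, 0.732%, and 0.889%. The gene lies within Gm12216, annotated on the opposite strand, which was counted with 233 UMIs in N2a but 66 in NIH/3T3 and 7 in mESCs, an order that differs from that of Irf1. Whether the counting used strand is not given in the sources used here, so reads of such overlapping pairs could not be told apart.

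Irf3 (chromosome 7, 44647033 to 44652272, plus strand), the factor phosphorylated after nucleic acid sensing, was the most even of the genes with over 50 UMIs in every line, with 16.1 CPM in N2a (14.3 to 18.1), 15.6 CPM in NIH/3T3 (13.4 to 18.0), and 13.5 CPM in mESCs (11.5 to 15.7). No pair of lines differed beyond counting error, and the order of N2a and NIH/3T3 turned with size factors or with all barcodes. The ratio was 1.03 for N2a to NIH/3T3 (0.856 to 1.25), 1.19 for N2a to mESCs (0.984 to 1.46), and 1.16 for NIH/3T3 to mESCs (0.931 to 1.43), so a difference of 1.5-fold lies outside each of these intervals. The shares of cells were 10.8%, 8.20%, and 7.07%, and 1.42%, 1.42%, and 1.73% after thinning. Irf3 overlaps Bcl2l12 on the opposite strand over 1104 bases, a gene counted with 98, 133, and 177 UMIs in the 3 lines.

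**Figure D2:**
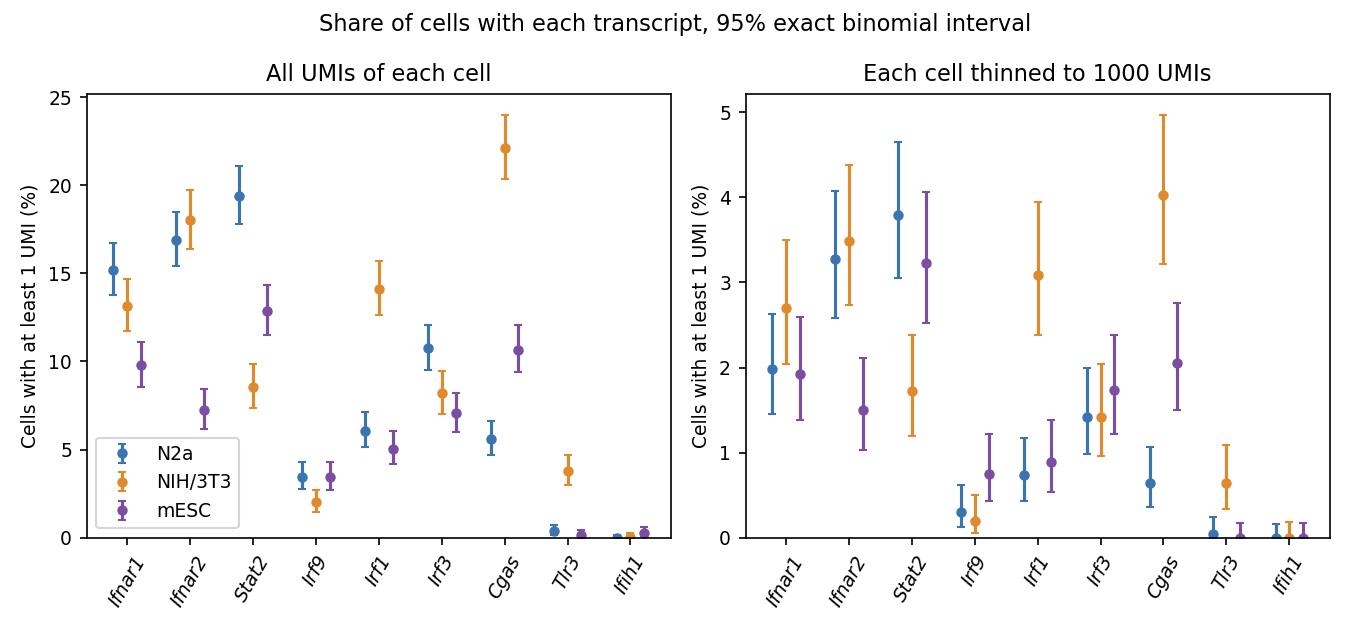
Percent of cells with at least 1 UMI of each gene (y axis, from 0) in N2a (blue), NIH/3T3 (orange), and mESCs (purple), with all UMIs of each cell (left) and with each cell thinned to 1000 UMIs (right); bars are 95% exact binomial intervals. Cgas is found in 22.1% of NIH/3T3 cells on the left and 4.03% on the right, and in both panels its NIH/3T3 share lies above the other lines.

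Among the sensors, Cgas (chromosome 9, 78337802 to 78350535, minus strand) had separate levels in all 3 lines. Its product makes the second messenger cGAMP when bound to DNA. The level was 8.35 CPM in N2a (7.07 to 9.80), 50.4 CPM in NIH/3T3 (46.4 to 54.7), and 21.2 CPM in mESCs (18.7 to 23.9). NIH/3T3 had 6.04 times the N2a level (5.04 to 7.27) and 2.38 times the mESC level (2.05 to 2.77), and mESCs had 2.54 times the N2a level (2.07 to 3.12). Transcripts were found in 5.60% of N2a cells, 22.1% of NIH/3T3 cells, and 10.7% of mESCs, and after thinning in 0.646%, 4.03%, and 2.06%. In NIH/3T3, 104 cells had at least 2 Cgas UMIs, against 14 N2a cells and 28 mESCs. Irf1 and Cgas, both highest in NIH/3T3, were detected together in 86 NIH/3T3 cells, or 4.22% of cells, where the product of their shares is 3.13%. The joint share was above the product in the other lines too, at 0.775% against 0.340% in N2a and 0.796% against 0.539% in mESCs. These joint shares were not corrected for depth either.

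Tlr3 (chromosome 8, 45848702 to 45864117, minus strand), which signals through the adaptor encoded by Ticam1, was counted mainly in NIH/3T3. Its level was 0.501 CPM in N2a (0.229 to 0.952, from 9 UMIs), 7.35 CPM in NIH/3T3 (5.88 to 9.08, from 86 UMIs), and 0.325 CPM in mESCs (0.0884 to 0.831, from 4 UMIs). The NIH/3T3 level was 14.7 times that of N2a (7.38 to 33.2) and 22.6 times that of mESCs (8.53 to 85.0). At least 1 UMI was counted in 3.78% of NIH/3T3 cells (2.99 to 4.70), spread over 31 of 32 BC1 sequences, in 0.387% of N2a cells, and in 0.140% of mESCs. UMIs can be counted in cells that do not make the transcript, although the lines received BC1 in separate columns of the plate. The fibroblast genes Cav1 and Col1a2 were found in 0.344% and 0.603% of N2a cells and in 0.328% and 0.515% of mESCs. Their levels in NIH/3T3, 233 and 461 CPM, were far above the Tlr3 level there, so these shares are no measure of misplaced Tlr3 UMIs. In N2a, Cav1 had 0.446 CPM and Col1a2 had 0.780 CPM. The source of the Tlr3 UMIs in N2a and mESCs was not tested, and they were not read as expression. After thinning, Tlr3 was left in 13 NIH/3T3 cells, 1 N2a cell, and 0 mESCs.

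Ifih1 (chromosome 2, 62425714 to 62476607, minus strand), which encodes the RNA sensor MDA5, was close to absent from the counts. No UMI was counted in 2323 N2a cells, which by the limit of 3 counts allows a share of cells with a UMI of up to 0.129%; it does not limit the share of cells expressing the gene. A single UMI was counted in NIH/3T3 (0.0855 CPM), and 6 UMIs in 6 mESCs (0.487 CPM, 0.179 to 1.06). The intervals of neighbouring lines overlapped, and the ratio of mESCs to NIH/3T3, 5.70, had an interval of 0.691 to 262. With so few UMIs, no order of the lines is read from these values, and the source of the UMIs was not tested.

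The BC1 sequences, 32 per line, mark the wells in which the cells of a culture received their barcode and are technical, not replicates. Over them, the Cgas level ran from 2.17 to 15.2 CPM in N2a (median 7.72), from 30.1 to 81.9 CPM in NIH/3T3 (median 47.4), and from 8.45 to 48.8 CPM in mESCs (median 20.5). Cgas between NIH/3T3 and N2a was the single case among the 9 genes in which the wells of 2 lines did not overlap. Such separation was not counted over all genes, so it does not set Cgas apart from them. The Irf1 level ran from 16.6 to 72.0 CPM in NIH/3T3 (median 28.8), from 2.01 to 21.6 CPM in N2a (median 7.37), and from 0 to 22.4 CPM in mESCs (median 9.07). Ifnar2 ranged from 22.3 to 65.2 CPM in NIH/3T3, 13.7 to 39.6 CPM in N2a, and 0 to 24.4 CPM in mESCs, and Stat2 from 4.14 to 28.2, 15.1 to 59.9, and 12.9 to 36.0 CPM in the same order. For these genes single wells crossed, while the medians kept the order of the pooled levels.

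**Figure D3:**
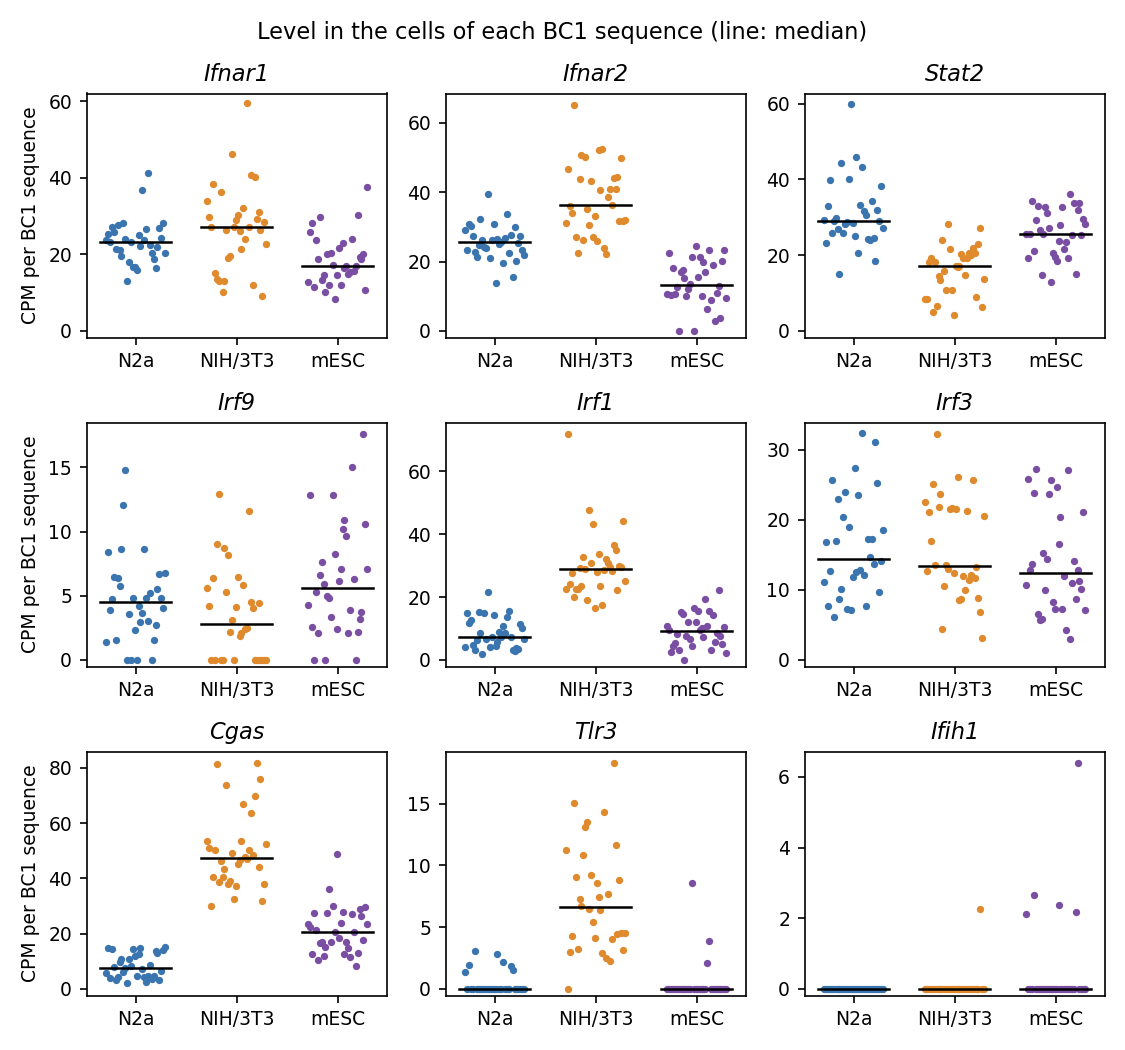
Level of each gene in CPM (y axis, a separate scale per panel) in the cells of each of the 32 BC1 sequences of a line, with 1 point per sequence and a line at the median. The NIH/3T3 points for Cgas, from 30.1 to 81.9 CPM, all lie above the N2a points, which reach 15.2 CPM.

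Pairs of lines were also compared by a rule of size, at least 2-fold, among genes with at least 50 UMIs in both lines together. Between NIH/3T3 and N2a, 8 of the 9 genes could be compared, and 3 were at least 2-fold higher in NIH/3T3 (Irf1, Cgas, and Tlr3), where 19% of the 13147 genes compared were. None (0 of 8) was 2-fold higher in N2a, against 23.2% of all genes. Between NIH/3T3 and mESCs, 4 of 8 were at least 2-fold higher in NIH/3T3 (Irf1, Ifnar2, Cgas, and Tlr3), where 22.7% of 13026 genes were, and 0 of 8 were higher in mESCs, against 24.5%. Between N2a and mESCs, 7 genes could be compared, and Cgas alone passed, higher in mESCs (1 of 7, against 21.8% of 13777 genes), with 0 of 7 higher in N2a, against 24.3%. Ifih1 was too low in every pair, and Tlr3 was too low between N2a and mESCs and passed in the other pairs through its NIH/3T3 counts. The median log2 ratio of NIH/3T3 to mESC was 0.90 over the 8 genes and -0.01 over all genes compared. For N2a to NIH/3T3 it was -0.37 over the 8 genes and 0.07 over all, and for N2a to mESC 0.25 over the 7 genes and 0.07 over all. With so few genes, these shares describe the genes and do not set them apart from the rest.

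**Figure D4:**
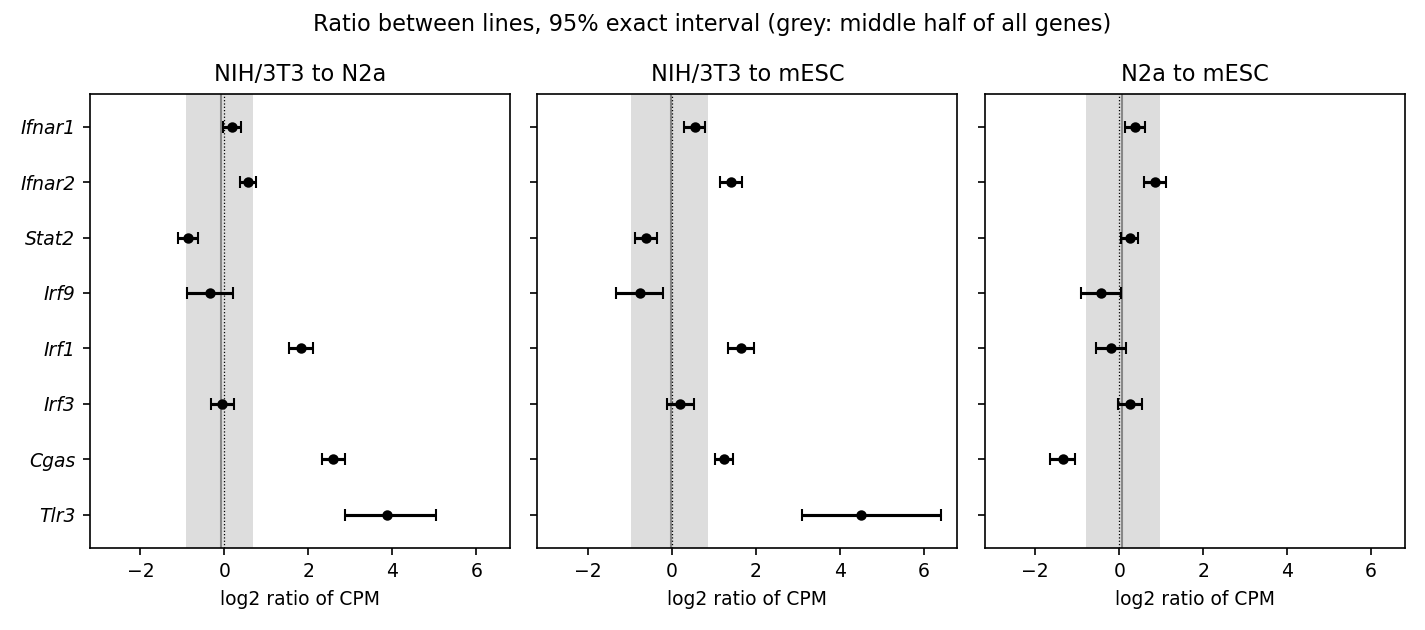
Log2 ratio of the level between 2 lines (x axis) for each gene with at least 50 UMIs in the pair (y axis); bars are 95% exact conditional intervals, the grey band spans the middle 50% of all genes compared, and the grey line is their median. Tlr3, Cgas, and Irf1 lie to the right of the band for NIH/3T3 to N2a, and Ifih1 and the Tlr3 ratio of N2a to mESC are not drawn because of low counts.

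In single cells the 9 transcripts were sparse. None of them was detected in 49.1% of N2a cells, 44.2% of NIH/3T3 cells, and 59.1% of mESCs, and at 1000 UMIs per cell in 88.2%, 83.7%, and 88.3%. At least 3 of the 9 genes were found in 5.73% of N2a cells, 7.31% of NIH/3T3 cells, and 3.23% of mESCs, and no cell held more than 6. Barcodes under 100 UMIs, which can hold free RNA, were also read. Cgas stood at 50.02 CPM in such barcodes of NIH/3T3, 23.0 CPM in those of mESCs, and 8.67 CPM in those of N2a, close to the cells of each line. Ifnar1 in such NIH/3T3 barcodes was lower than in the cells, at 13.98 CPM (8.41 to 21.8).

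A small subset of mESCs in culture switches on genes of the 2-cell embryo, and 76 mESCs had at least 3 UMIs of the 7 such genes listed, a limit set after the data had been seen. Stat2 had a level of 53.9 CPM in these cells (32.9 to 83.2, from 20 UMIs) and 25.2 CPM in the other 2061 mESCs (22.4 to 28.2). Its interval lay wholly above that of the other mESCs, as was the case for 8.19% of the 11225 genes with at least 50 UMIs in mESCs. The intervals of the other 8 genes overlapped, with Cgas at 10.8 CPM (2.93 to 27.6) and 21.5 CPM (19.0 to 24.3). Close to the limit lay 21 cells with 2 UMIs of these genes and 12 cells with 3, and all cells came from 1 culture.

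Isg15, named after its values were seen, encodes a ubiquitin-like antiviral protein and had 0 UMIs in 2137 mESCs and was unevenly spread in NIH/3T3. There, 13 cells in 11 wells had at least 2 Isg15 UMIs, a limit likewise chosen afterwards, and lay above the other cells in depth (median 9831 against 4847 UMIs). These cells held 10 of the 14 Ifit1 UMIs of the line and 12 of the 123 Oasl1 UMIs, the latter in 2 cells, but 9 of the 1067 Ifit2 UMIs. Their Irf1 level was 72.1 CPM (33.0 to 136.9, from 9 UMIs) against 29.4 CPM in the other cells (26.3 to 32.7). Its interval lay wholly above, as did that of 2.49% of the 10470 genes with at least 50 UMIs in the line. Stat2 had 48.1 CPM (17.6 to 104.6) against 16.7 CPM (14.4 to 19.2), and Cgas 64.1 CPM (27.7 to 126.3) against 50.3 CPM (46.3 to 54.5), both with overlapping intervals. Tlr3 had 0 UMIs in these 13 cells, where its interval reached 29.5 CPM. In N2a, 7 cells had at least 2 Isg15 UMIs, and their Irf1 level was 8.80 CPM (0.223 to 49.0, from 1 UMI) against 8.41 CPM in the other cells (7.12 to 9.87).

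For each gene with at least 50 UMIs in a line, the gene most like it in levels was searched by the Euclidean distance of log2(CPM + 1) over the 3 lines, among 13747 genes outside the lists. Nearest to Stat2 was Dhodh (distance 0.0595; 32.4, 17.1, and 26.0 CPM in N2a, NIH/3T3, and mESCs). Nearest to Irf1 was Tnfrsf22 (0.0836) and nearest to Irf3 was Nkain1 (0.0326). Irf9 was closest to Stk11ip (0.127), Ifnar1 to Dram2 (0.0710), and Ifnar2 to Naa60 (0.0790). Cgas was closest to Adat2 (0.215; 8.35, 43.3, and 21.4 CPM) and Tlr3 to A630001G21Rik (0.181). Over only 3 lines many genes share a pattern, and within a distance of 0.5 there were 174 genes for Ifnar1 and 170 for Irf3, but 10 for Cgas and 15 for Tlr3.

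The rest of the pathway was described with 8 lists of 86 genes, of which 84 were analysed (Mx1 and Mx2 were not analysed here). Of the list genes with enough counts, 14 of 46 were at least 2-fold higher in NIH/3T3 than in N2a (30.4%) and 5 of 46 in N2a (10.9%). Between NIH/3T3 and mESCs, 19 of 47 were higher in NIH/3T3 (40.4%) and 10 of 47 in mESCs (21.3%). Between N2a and mESCs, 13 of 47 were higher in N2a (27.7%) and 11 of 47 in mESCs (23.4%). Beside the shares of all genes given above, the share higher in NIH/3T3 was above the background in both of its comparisons. Between N2a and mESCs, the shares were slightly above it in both directions (against 24.3% and 21.8%). The lists were chosen with earlier results of these data known, so the shares only describe the listed genes. The ligands were close to silent. Of 12 interferon genes, 10 had 0 UMIs in every line, and the other 2, Ifne and Ifnk, had 1 UMI each, in NIH/3T3.

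Among the receptor chains and kinases beside IFNAR, 4 of 6 genes were at least 2-fold higher in NIH/3T3 than in mESCs (against 22.7% of all genes). The other way, 1 of 6, the kinase gene Tyk2, was higher in mESCs (against 24.5%). Between N2a and mESCs, 3 of 6 were higher in N2a (against 24.3%) and 0 of 6 in mESCs (against 21.8%). Like Ifnar2, the interferon gamma receptor chain gene Ifngr2 was lowest in mESCs, with levels of 30.2, 48.1, and 2.35 CPM in N2a, NIH/3T3, and mESCs. The kinase gene Jak1 had 235, 295, and 122 CPM in the same order. Of the other STAT and IRF genes, Irf2, which competes with IRF1 for its sites, had 145, 82.7, and 2.84 CPM, Stat3 had 103, 40.3, and 99.4 CPM, and Irf5 had 0.947, 1.28, and 5.36 CPM.

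Other genes of the sensing pathways differed in the order of the lines. Sting1, the receptor for cGAMP, named here after its values were seen, had 14.4, 7.69, and 1.14 CPM in N2a, NIH/3T3, and mESCs, so Cgas was lowest in the line in which Sting1 was highest. Aim2, another DNA sensor, had 27.6, 144, and 21.6 CPM and was like Cgas highest in NIH/3T3. The nuclease subunit gene Rnaseh2b was highest in mESCs (34.0, 26.6, and 115 CPM), and Enpp1, which degrades cGAMP, was highest in N2a (7.35, 0.171, and 0.487 CPM). Unc93b1, which carries TLR3 to endosomes, had 24.1 CPM in N2a, 2.92 CPM in mESCs, and 0.0855 CPM in NIH/3T3, the line with the highest Tlr3. Irak1 and Irak4, kinases of other Toll-like receptors, had 34.1, 38.98, and 33.2 CPM and 14.4, 31.1, and 7.87 CPM. Tbk1, which phosphorylates IRF3, had 177, 93.3, and 51.4 CPM, and the adaptor gene Traf3 had 70.2, 135, and 45.9 CPM. Trex1, Myd88, and Tlr9 had 0 UMIs in all lines. Trex1 lies within the span of Atrip on the same strand, over 1802 bases. Whether their reads could be told apart was not tested. Myd88 overlaps Acaa1a, on the opposite strand, over 1745 of the 3339 bases of its transcript. Where strand was not used, reads of this part could not be told apart. The rest of the transcript has no such overlap, and the reason for its 0 was not tested.

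The interferon-stimulated genes differed among themselves in the order of the lines. Of 9 with enough counts in NIH/3T3 and N2a, 5 were at least 2-fold higher in NIH/3T3 (55.6%, against 19% of all genes) and 1 in N2a (11.1%, against 23.2%). Of 12 compared between NIH/3T3 and mESCs, 5 were higher in NIH/3T3 (41.7%, against 22.7%) and 4 in mESCs (33.3%, against 24.5%). Of 9 compared between N2a and mESCs, 4 were higher in each (44.4%, against 24.3% and 21.8%). Ifit2 had 0.390, 91.2, and 0.649 CPM in N2a, NIH/3T3, and mESCs, and Oasl1 had 0.334, 10.5, and 1.70 CPM. Bst2, which tethers virus particles, was highest in N2a (54.7, 0, and 6.98 CPM). Ifitm1 and Xaf1 were highest in mESCs (0.223, 0.0855, and 51.2 CPM, and 5.63, 6.58, and 28.7 CPM), as was Ifitm2 (115, 198, and 228 CPM), whereas Ifitm3 was highest in NIH/3T3 (26.0, 148, and 102 CPM). Of 7 negative regulators, Socs1, an inhibitor of JAK kinases, shared the pattern of Irf1 with 2.17, 29.8, and 1.87 CPM. The phosphatase gene Ptpn6 was highest in mESCs (2.23, 1.54, and 17.6 CPM), and Ptpn11 and Pias1 had 115, 154, and 63.9 CPM and 89.1, 67.9, and 77.3 CPM. The 8 immune cell markers summed to 36.4, 25.6, and 21.2 CPM, and their defining gene Ptprc, a marker of all leukocytes, had 2 UMIs in N2a and 0 in the other lines. The largest parts of these sums were Itgam with 20.5 CPM in N2a, Cd14 with 14.4 CPM in NIH/3T3, and Itgam with 10.6 CPM in mESCs, and their part in the levels of the 9 genes was not tested.

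**Figure D5:**
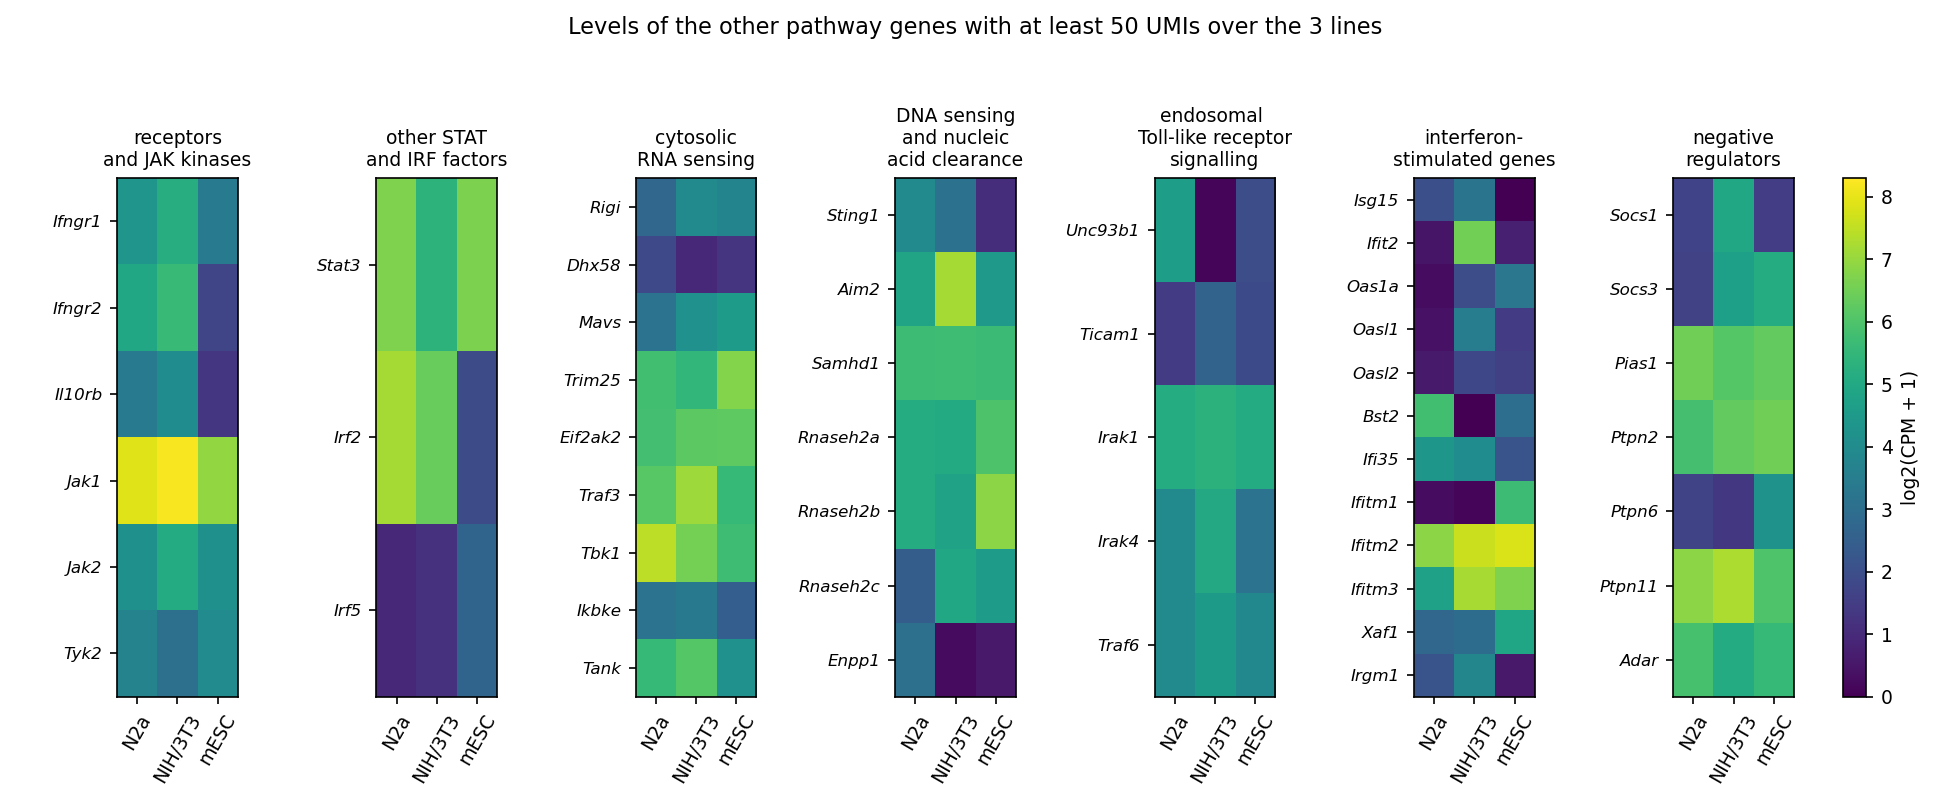
Level of the other pathway genes with at least 50 UMIs over the 3 lines (rows, grouped by list, without 1 gene not reported here) in each line (columns), coloured on a scale of log2(CPM + 1). Ifit2 is bright in NIH/3T3 only (91.2 CPM), Irf2 and Ifngr2 are dark in mESCs (2.84 and 2.35 CPM), and Unc93b1 is dark in NIH/3T3 (0.0855 CPM).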

How the data were processed

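The authors converted the sequencing output with bcl2fastq, assigned reads to lines by BC1, trimmed the TSO with Cutadapt, and counted with STARsolo on GRCm39 (GENCODE annotation). They deposited raw UMI counts per gene and barcode, with every barcode kept and without normalization. The feature mode and strand setting are not given in the sources used here.

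From these counts, cells were kept from 1000 UMIs upwards unless over 20% of these were mitochondrial. Levels are CPM of UMIs summed over cells. Differences were described by a 2-fold rule among genes with at least 50 UMIs in both lines together, against a floor of 3 counts. No doublet caller was run; the 5% of cells with the most UMIs were left out as an alternative. The genes and lists were chosen with earlier results of these data known. Named beside them were, per list, the 2 highest genes and those at least 4 times above both other lines, and the gene nearest in levels. Positions and promoter windows came from a later GENCODE release than the one the authors counted with, on the same build, with 32953 of 33565 gene identifiers found. Levels of 2 list genes are not reported here. The windows end at the outermost gene start, a choice made after the canonical start had been tried, where Tlr3 had no GAS match. Code ran in Python 3.11.15, numpy 2.4.6, scipy 1.17.1, and pandas 2.3.3, and was tested on simulated data.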

Additional observations from a re-analysis of the deposited data

How the results depend on the processing

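With 1 sample per line, no replicate could be left out. No paired analysis was possible because each line has 1 sample and the values come from no test. Of 216 recomputed levels under 8 alternatives (STARsolo default calling, a minimum of 2000 UMIs, all barcodes, median-of-ratios size factors, totals without mitochondrial UMIs, the pooled matrix, without the 5% of cells with the most UMIs, and the mean over cells), 215 lay within the interval of the reported value; Ifih1 in NIH/3T3 became 0 without the top cells. All 184 recomputed log2 ratios lay within the interval of the reported value, but 2 ratios close to 0 changed sign. Irf1 for N2a to mESC went from -0.19 to 0.08 with the mean over cells, and Irf3 for N2a to NIH/3T3 from 0.05 to -0.02 with all barcodes and with size factors. Size factors moved the log2 ratios by at most 0.07. The counts of genes past 2-fold changed as follows. The mean over cells added Ifnar2 for N2a over mESCs (1 in place of 0) and Irf9 for mESCs over NIH/3T3 (1 in place of 0). Without a filter on low counts, Ifih1 was added for mESCs over N2a (2 in place of 1) and for mESCs over NIH/3T3 (1 in place of 0). At 3-fold, 0 genes remained for mESCs over N2a and 2 for NIH/3T3 over mESCs. Of 135 recomputed shares, 62 moved beyond their interval, of which 26 by thinning to 1000 UMIs and 25 by thinning to 2000 UMIs. Counts of the pathway lists, recomputed with size factors alone, moved by less than 1.5 times. Depth limits the genes under 50 UMIs, Ifih1 in every line, Tlr3 in N2a and mESCs, and Irf9 in NIH/3T3.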
